A study of Mus musculus with 53 samples.

Results

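In naive extra-embryonic endoderm (nEnd), a stem cell culture that models the primitive endoderm (PrE) of the blastocyst, 2476 genomic regions carried the histone mark H3K27ac without a peak of H3K4me1. They were found by merging the H3K27ac peaks of 2 nEnd libraries wherever they overlapped by 1 bp, keeping the 14727 merged regions that held peaks of both libraries, and then dropping each region that overlapped a peak of either nEnd H3K4me1 library. The 2476 that were left are called H3K27ac-only regions here and make up 16.8% of the 14727. The other 12251 are called doubly marked regions, of which 7478 overlapped H3K4me1 peaks of both libraries, 4674 of the first library only and 99 of the second only. The regions were thus selected on the nEnd H3K27ac and H3K4me1 peaks, and both marks in nEnd are described below and not tested.

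The data are CUT&RUN peak lists, in which an antibody guides a nuclease to a chromatin protein or mark and the DNA released there is sequenced. All samples are SGGC mouse embryonic stem cell (ESC) lines derived from E14JU cells of the 129/Ola background, in which the endogenous SOX2 is fused to GFP and GATA6 to mCherry with the resistance cassettes still present, and B9 and B12 are each a single clone. The conditions are the pluripotent culture in 2iLIF (inhibitors of MEK and GSK3 with LIF), the pluripotent culture in NACL (Activin, a GSK3 inhibitor and LIF), SOX2+ cells and SOX2 and GATA6 double positive (DP) cells sorted from KOSR culture, and nEnd cells. Of 53 samples, 35 have peak lists and 33 of those have a group in their labels. In nEnd the H3K27ac and GATA6 libraries came from 1 sample each of B9 and B12, whereas both H3K4me1 libraries came from B9. The other conditions hold 7 H3K27ac libraries and 7 of H3K4me1, with 2 each in 2iLIF, NACL and SOX2+ cells and 1 in DP cells, besides 3 of GATA6 in DP cells and 10 of SOX2. All KOSR libraries came from B12.

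H3K27ac is deposited by the acetyltransferases p300 and CBP at active promoters and active enhancers. H3K4me1 is laid down by MLL3 and MLL4 and is best known from enhancers, both active and primed, and from the flanks of promoters, whose centre carries H3K4me3 instead. GATA6 is the zinc finger factor that specifies PrE, and SOX2 is a core factor of the pluripotent epiblast.

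Regions of 2 kinds recur below, active promoters and distal sites with GATA6, and examples of each are printed to show what the sequence counts refer to. The first examples are promoters of H3K27ac-only regions, taken from RefSeq on GRCm38.p6 as the bases from 250 before to 50 after the start, in the direction of the gene. Capitals mark matches on either strand to the strings GCATGCGC (NRF1), CCGGAAGT (ETS), GGGGCGGGG (SP), CCAATCAG (NF-Y) and AAGATGGC (YY1). Eef1a1 encodes the translation elongation factor eEF1A1, Rars2 a mitochondrial arginyl-tRNA synthetase, Mrps12 a protein of the small mitochondrial ribosomal subunit and Zfp263 a zinc finger protein.
Eef1a1, chr9:78481675-78481974, minus strand: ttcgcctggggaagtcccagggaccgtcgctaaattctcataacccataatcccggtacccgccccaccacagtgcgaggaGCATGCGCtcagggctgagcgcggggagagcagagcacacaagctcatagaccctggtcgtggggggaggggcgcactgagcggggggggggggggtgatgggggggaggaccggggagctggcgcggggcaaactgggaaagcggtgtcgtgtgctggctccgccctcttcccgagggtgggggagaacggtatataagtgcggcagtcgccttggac
Rars2, chr4:34614707-34615006, plus strand: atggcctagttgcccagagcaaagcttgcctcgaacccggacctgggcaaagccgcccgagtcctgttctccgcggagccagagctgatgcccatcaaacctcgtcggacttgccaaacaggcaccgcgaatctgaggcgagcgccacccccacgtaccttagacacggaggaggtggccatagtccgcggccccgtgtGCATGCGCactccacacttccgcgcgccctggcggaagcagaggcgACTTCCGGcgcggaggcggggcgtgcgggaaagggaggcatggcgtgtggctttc
Mrps12, chr7:28741772-28742071, minus strand: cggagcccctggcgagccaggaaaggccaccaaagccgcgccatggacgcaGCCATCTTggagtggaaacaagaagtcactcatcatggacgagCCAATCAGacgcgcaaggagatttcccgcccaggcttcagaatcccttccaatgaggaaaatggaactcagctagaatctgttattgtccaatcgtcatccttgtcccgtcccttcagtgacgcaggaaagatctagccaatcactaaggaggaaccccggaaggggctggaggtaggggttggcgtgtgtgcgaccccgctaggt
Zfp263, chr16:3743849-3744148, plus strand: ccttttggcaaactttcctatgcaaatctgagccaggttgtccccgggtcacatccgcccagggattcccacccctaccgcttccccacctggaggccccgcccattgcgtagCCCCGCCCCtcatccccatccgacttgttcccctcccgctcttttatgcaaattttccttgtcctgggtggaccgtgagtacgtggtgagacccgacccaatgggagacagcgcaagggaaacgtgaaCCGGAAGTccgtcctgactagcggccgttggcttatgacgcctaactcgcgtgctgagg
Of the 38 RefSeq promoters of named regions examined, 19 held any of the promoter strings, so these 4 were picked for their matches and are not typical. These 300-base promoters held 22, 30, 16 and 20 CpG dinucleotides respectively. The promoter of Mrps12 overlaps that of Sars2, which is read in the opposite direction from the same H3K27ac-only region.

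The second examples are 120 bases of GRCm38 around the GATA6 maximum of clone B9 in distal H3K27ac-only regions, with the plus strand printed and any of 4 GATA forms in capitals on either strand, where AGATAA is the first form, AGATAG is the second, TGATAA is the third and TGATAG is the last. Each is named for the gene with the nearest start site. Of 15 such windows examined in named regions with GATA6 in both nEnd libraries, all of them distal except that of Tff3, 10 held a GATA form.
Tnrc6a, chr7:123108567-123108686, plus strand: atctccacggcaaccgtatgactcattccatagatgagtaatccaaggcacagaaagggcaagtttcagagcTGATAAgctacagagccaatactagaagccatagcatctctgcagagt
Actbl2, chr13:111296160-111296279, plus strand: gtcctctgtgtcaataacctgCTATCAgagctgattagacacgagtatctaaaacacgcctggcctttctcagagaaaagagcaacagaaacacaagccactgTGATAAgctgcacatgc
Phf2os1, chr13:48845495-48845614, plus strand: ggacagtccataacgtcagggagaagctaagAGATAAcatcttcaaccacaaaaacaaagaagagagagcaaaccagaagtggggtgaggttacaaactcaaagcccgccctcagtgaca
6820426E19Rik, chr6:117516692-117516811, plus strand: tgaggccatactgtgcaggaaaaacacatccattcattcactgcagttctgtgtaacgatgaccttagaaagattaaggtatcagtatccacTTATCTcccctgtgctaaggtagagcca
Cfap99, chr5:34294862-34294981, plus strand: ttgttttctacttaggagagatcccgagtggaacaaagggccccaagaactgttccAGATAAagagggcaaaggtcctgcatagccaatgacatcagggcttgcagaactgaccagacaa
The regions near 6820426E19Rik and Cfap99 had no H3K27ac peak in any other condition, while those near Tnrc6a, Actbl2 and Phf2os1 had one in 3, 2 and 4 of the 7 libraries. A match describes these letters and is not a measured binding site.

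The nEnd label was checked on marker genes. An H3K27ac peak of both nEnd libraries lay within 1 kb of a start site of 5 of 6 PrE markers (Gata6, Gata4, Sox17, Pdgfra and Dab2, with Sox7 in 1 library), and no peak at the pluripotency genes Sox2, Nanog and Esrrb, although Pou5f1 and Zfp42 had peaks of both libraries. Of 4 trophoblast markers, Elf5 had peaks of both libraries and Cdx2, Gata3 and Eomes had none. The 2iLIF and NACL libraries also had H3K27ac at the PrE markers (Gata6 and Dab2 in 4 of 4 libraries, Gata4 and Sox17 in 3, Pdgfra in 2, Sox7 in 1). The presence of a peak at PrE markers thus did not set nEnd apart from them. Those lists hold 210904 to 401853 H3K27ac peaks, so this count cannot tell whether the level of the mark differed. Sox2 and Esrrb had peaks in 4 and Nanog in 3 of the 4 libraries of 2iLIF and NACL. None of these genes lay within 1 kb of an H3K27ac-only region. The lists held 20072 and 21394 H3K27ac peaks and 42816 and 18627 H3K4me1 peaks in nEnd, while those of all 35 libraries ranged from 1378 to 401853 peaks. Read depth is unknown, so a region without a peak may still carry the mark below the calling threshold.

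The H3K27ac-only regions were shorter than the doubly marked ones and their H3K27ac peaks ranked lower by total signal, a sum that also grows with peak width. Peak height at matched width was not compared. Their median width was 4556.5 bp, with quartiles of 3443.5 and 6449 bp and a range of 970 to 31929 bp, against a median of 7829 bp for the doubly marked regions. Their strongest H3K27ac peak had a median percentile rank of total signal of 37.4 in B9 and 36.7 in B12, where doubly marked regions had 65.6 and 66.6. The mean rank over both libraries was under 50 for 72.9% of the H3K27ac-only and 33.0% of the doubly marked regions. It exceeded 90 in 3 H3K27ac-only regions. A wider region has more chances to meet an H3K4me1 peak, so width is part of what the rule selects. The nearest nEnd H3K4me1 peak lay at a median of 9464.5 bp, with quartiles of 3631 and 22598 bp and a minimum of 2 bp.

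Around the edge of the rule, 200 H3K27ac-only regions lay less than 1 kb from an nEnd H3K4me1 peak, and 62 doubly marked regions overlapped less than 500 bp of H3K4me1. The first had a median width of 4047 bp, and 76.5% of them lay within 1 kb of a start site. The second had a median width of 4312.5 bp, and 87.1% of them lay within 1 kb of a start site. The number of H3K27ac-only regions also depended on single libraries. It was 4520 without the B9 H3K27ac library, 5028 without that of B12, 7150 without the first H3K4me1 library and 2575 without the second.

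The share of H3K27ac-only regions at start sites was close to that of all regions. Of the 2476, 1661 or 67.1% (95% Clopper-Pearson interval 65.2 to 68.9, for counting error over regions only) lay no more than 1 kb from a GENCODE transcription start site (TSS), where the share among all 14727 regions was 62.3%. A start site lay inside 1596 of them (64.5%, against 59.9% of all), 15.6% lay 10 to 50 kb from any start site (16.97% of all) and 2.79% over 50 kb (2.82% of all), which is near the values of all regions. The share among doubly marked regions was 61.4%, and for protein-coding start sites alone the 2 shares were 61.5% and 54.8%. The strongest H3K27ac maximum itself lay within 1 kb of a start site in 55.3% of H3K27ac-only and 35.5% of doubly marked regions. In clone B9 or B12 alone the share within 1 kb was 52.2% or 54.6% of the larger sets named above.

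**Figure D1:**
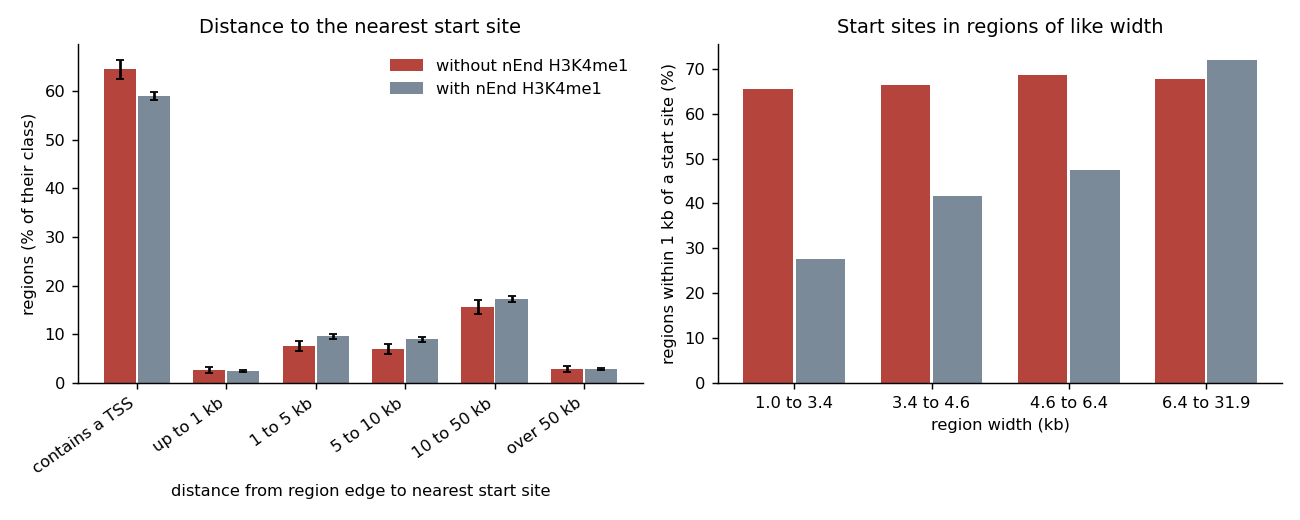
Left, percent of H3K27ac-only (red) and doubly marked (grey) nEnd H3K27ac regions by distance from the region's edge to the nearest start site, with 95% Clopper-Pearson intervals. Right, percent within 1 kb of a start site by region width, in the quartiles of the H3K27ac-only regions; the red bars stay between 65.6% and 68.6% while the grey bars climb from 27.7% to 71.9%.

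The 2 classes differed at start sites in how the share varied with width. From 970 to 3443.5 bp of width, 65.6% of 619 H3K27ac-only regions and 27.7% of 866 doubly marked regions lay within 1 kb of a start site. From 4556.5 to 6449 bp the shares were 68.6% and 47.4%. Above 6449 bp they were 67.7% and 71.9%. The H3K27ac-only regions thus held start sites about equally often at every width, and the doubly marked regions did so more often the wider they were.

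The sequence under the strongest H3K27ac maximum, which the rule did not use, was richer in CpG at the H3K27ac-only regions. In the 500 bp around it the median number of CpG dinucleotides was 11, against 7 at doubly marked regions, and 29.7% against 15.4% of windows exceeded 50% GC with a ratio of observed to expected CpG over 0.6. Promoter H3K27ac-only regions had a median of 20 CpG and 43.0% such windows, while promoter regions with H3K4me1 had 10 and 24.8%. The maximum on which these windows lie was itself within 1 kb of a start site in 1370 of the 1661 promoter H3K27ac-only regions and in 4353 of the 7521 doubly marked ones, and the part of this in the CpG values was not tested. Distal H3K27ac-only regions had a median of 5 CpG and 2.70% such windows, and distal doubly marked regions 5 and 0.338%. Repeat-masked bases made up a median of 8.4% of the windows in H3K27ac-only and 9.6% in doubly marked regions. Start sites of protein-coding genes on opposite strands lay within 1 kb of the maximum in 179 H3K27ac-only and 534 doubly marked regions. That is 10.8% and 7.10% of their promoter regions. Such a pair can only be counted where the maximum lies near start sites, so the unequal placement of the maxima enters these shares too. Regions with the maximum within 1 kb of a start site were not compared on their own.

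Of the short strings known from promoters, 7 were more frequent at the H3K27ac-only windows, while the TATA box string TATAAA was less frequent, with 14.99% of promoter H3K27ac-only and 17.3% of doubly marked promoter windows. The windows lie on the H3K27ac maximum, so those of promoter regions lie at a start site more often in the H3K27ac-only class, as counted above. The ETS string occurred in 6.26% of promoter H3K27ac-only windows, 4.08% of doubly marked promoter windows and 3.89% of all RefSeq promoters, which are 300 bases long against 500 for the windows. For the NRF1 string the shares were 3.67%, 1.69% and 2.71%, and for the SP string 11.7%, 6.46% and 11.4%. The YY1 string occurred in 5.42%, 3.98% and 2.75%, and the NF-Y string in 4.88%, 2.82% and 4.1%. The cyclic AMP response element TGACGTCA occurred in 2.65%, 1.36% and 1.79%, and the ZNF143 string ACTACAATT in 1.02%, 0.465% and 0.393%. Distal H3K27ac-only windows held ETS in 0.245% and SP in 1.23%, and any of the 4 GATA forms in 69.2%, against 47.4% of their promoter windows. Doubly marked regions held a GATA form in 58.7% of promoter and 78.2% of distal windows. Of the remaining strings, the H3K27ac-only and doubly marked windows held the SOX string CATTGT in 26.4% and 32.4%, the KLF string CCACACCC in 5.09% and 6.46% and the CTCF string AGGGGGCGC in 0.525% and 0.433%. These are descriptions of letters and no test was made.

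Of the gene lists, zinc finger genes, aminoacyl-tRNA synthetases and FGF and ERK pathway genes had the largest shares at H3K27ac-only regions among their genes at either class, with 40.1%, 32.4% and 31.2%. A start site of 1763 of 21938 protein-coding genes (8.04%) lay within 1 kb of an H3K27ac-only region, of which 400 also had a start site at a doubly marked region, and 7511 genes (34.2%) had one at a doubly marked region. Of the genes at either class, 19.9% were thus at an H3K27ac-only region, which is the figure to read the lists against. The lists were compiled with earlier results of these data known, so their counts are descriptions.

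Among 40 PrE genes, 29 lay at doubly marked and 2 at H3K27ac-only regions. Rhox5 (chrX:37804748-37810177) is a homeobox gene expressed in extra-embryonic tissues, and its region ranked at the 58.7 percentile in B9 and 66.9 in B12. Ihh (chr1:74947815-74952783), which encodes the secreted Indian hedgehog, ranked at 13.2 and 41.4, and its region ended 256 bp from an H3K4me1 peak. Both had GATA6 in 1 of 2 nEnd libraries and in no DP library. None of 20 pluripotency, 16 trophoblast and 18 neural and mesoderm genes lay at an H3K27ac-only region, and since only 8, 4 and 1 of them lay at a doubly marked region, these counts are too small to be read against 19.9%. Of 31 cell cycle genes only Ccnb2, for cyclin B2, lay at an H3K27ac-only region, and 24 at a doubly marked one.

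Aminoacyl-tRNA synthetases, which charge tRNAs with their amino acids, were at H3K27ac-only regions in 11 of 36 cases, 4 of which were at both classes. Of these 11, Yars2, Iars2, Rars2, Sars2, Lars2, Nars2, Pars2 and Wars2 act in mitochondria. The Yars2 region was 19894 bp wide and carried H3K27ac in all 7 libraries of other conditions, H3K4me1 in 6 of 7 and GATA6 in none. The mitochondrial ribosomal proteins were at H3K27ac-only regions in 18 of 78 cases and at doubly marked regions in 53. The cytosolic ribosomal proteins were there in 5 of 83 cases (among them Rpl13, Rps27l, Rpl10 and Rpl10a) and at doubly marked regions in 75. In percent of the genes at either class, these lists gave 32.4, 26.1 and 6.25.

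**Figure D2:**
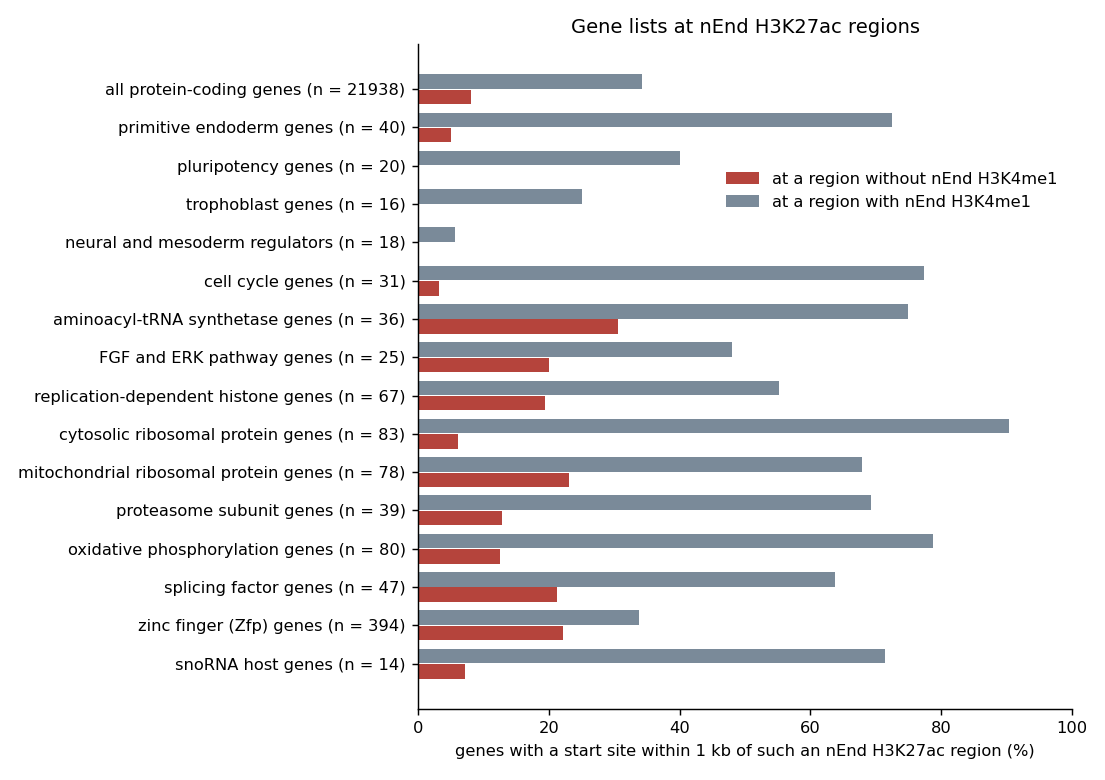
Percent of the genes of each list with a start site within 1 kb of an H3K27ac-only (red) or a doubly marked (grey) nEnd H3K27ac region, with the number of genes in brackets. Aminoacyl-tRNA synthetases reach 30.6% in red and cytosolic ribosomal proteins 6.02%, against 8.04% of all protein-coding genes. Among genes at either class, the share at H3K27ac-only regions is 32.4% and 6.25%, against 19.9% of all protein-coding genes.

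Zinc finger genes named Zfp, many of which encode KRAB repressors of transposable elements, were at H3K27ac-only regions in 87 of 394 cases and at doubly marked regions in 133, or 40.1% of those at either class. The region of Zfp263 ranked at 80.9 and 73.9, and that of Zfp526 at 84.6 and 79.3. Replication-dependent histone genes were at H3K27ac-only regions in 13 of 67 cases and at doubly marked regions in 37, or 26% of those at either class. Hist1h1a, Hist1h3a, Hist1h4a and Hist1h4b shared a single region of 9610 bp (chr13:23756114-23765723), which carried GATA6 in both nEnd and 2 DP libraries. Histone genes, and some but not all Zfp genes, lie in clusters of similar copies, so reads of some of them may have been placed uncertainly. Splicing factors were at H3K27ac-only regions in 10 of 47 cases (Prpf3, Sf3a3, Lsm3 and Prpf31 led by rank) and at doubly marked regions in 30, or 25.6% of those at either class. Proteasome subunits were there in 5 of 39 cases (Psmc4, Psmd8, Psma1, Psmd13 and Psmb6) and at doubly marked regions in 27, or 15.6%. Oxidative phosphorylation genes were there in 10 of 80 annotated gene models, with Atp5o counted as 2 models (Atp5g1, Ndufb3, Ndufb11 and Ndufs4 led). They were at doubly marked regions in 63, or 13.7%. These last 2 shares are below the 19.9% of all protein-coding genes, but they rest on 5 and 10 genes and were not tested. Of 14 snoRNA host genes, Snhg12 alone was at an H3K27ac-only region and 10 were at doubly marked regions, too few to be read against 19.9%.

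The FGF and ERK pathway drives PrE specification, and 5 of its 25 listed genes lay at H3K27ac-only regions while 12 lay at doubly marked ones. Sos1 and Sos2 encode exchange factors that activate RAS, and both of their regions had GATA6 in both nEnd libraries. Sos1 ranked at 58.2 and 40.4, and Sos2 at 48.2 and 32.9. Dusp6 encodes a phosphatase of ERK, and its region of 4015 bp ranked at only 11.5 and 32.1. It carried SOX2 in 9 of 10 SOX2 libraries, H3K27ac in all 7 and H3K4me1 in 4 of 7 libraries of other conditions. Hras was also at such a region.

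The strongest H3K27ac-only regions were mixed in kind. The first by mean rank, with 93.7 in B9 and 89.7 in B12, spanned 12736 bp at Tbc1d17 and carried GATA6 in both nEnd libraries. The next lay at Fosl2 (chr5:32131637-32147566), a gene of the AP-1 family, with ranks of 97.1 and 85.2, GATA6 in both nEnd libraries and the nearest H3K4me1 peak 61497 bp away. Eef1a1 (chr9:78471943-78485668) ranked at 90.3 and 88.8, had no GATA6, and carried both marks in all 7 libraries of the other conditions. Wdtc1 ranked at 90.1 and 87.1, had both marks in all 7 as well, and lay 928 bp from an nEnd H3K4me1 peak. Spag9, 1700031P21Rik and regions near Cd2ap, Tspan9 and Gm43344 were also among the first 10. The region 5859 bp from Cd2ap, which encodes an adaptor protein linked to actin, was the only one of them with GATA6 in all 3 DP libraries.

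Width and strength parted in some of the widest regions. The widest, 31929 bp at Gm22786 (chr1:86076104-86108032), ranked at 20.6 in B9 and 90.7 in B12. The next, 31516 bp in an intron 14524 bp from a start site of Nup98, ranked at 18.2 and 85.3, and that at Oxsr1 at 22.5 and 85.7. In these 3 regions the peak that B12 called was strong and that of B9 weak. Of the other widest regions, those at Sh3pxd2b (47.3 and 83), Pepd (50.5 and 89.2) and Tipin (52.8 and 89.4) leaned the same way, while those at Tspan9 (92.3 and 82.6) and Gm43344 (90.5 and 84.8) did not.

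GATA6 was less frequent at H3K27ac-only regions than at doubly marked regions in all 5 libraries. In nEnd it was found at 27.3% of them in B9 and 32% in B12, against 59.2% and 66.2% of doubly marked regions and 53.8% and 60.5% of all 14727. In DP cells it was found at 5.05% in experiment A, 2.3% in A1 and 0.485% in B, against 18.1%, 10.2% and 3.93% of doubly marked regions and 15.9%, 8.85% and 3.35% of all. The difference averaged -18.1 ± 14.1 percentage points (SD, n = 5 libraries), at -33.0 in nEnd and -8.11 in DP cells. An exact two-sided sign-flip test over the 5 libraries gave p = 0.0625, adjusted p = 0.0625, which is the smallest value 5 libraries allow, so this difference could not pass the threshold of 0.05. The share of doubly marked over that of H3K27ac-only regions was 2.17 and 2.07 in nEnd and 3.58, 4.42 and 8.10 in DP cells. Between 3443.5 and 6449 bp of width the contrast was smaller. There GATA6 was found in nEnd at 30.4% and 35.8% of H3K27ac-only and 55.1% and 61.8% of doubly marked regions. In DP cells the shares were 5.73%, 2.66% and 0.484%, against 13.4%, 7.43% and 2.81%. The mean difference at these widths was -13.1 points. The DP lists are short, with 1391 to 8316 peaks against 24223 and 32510 in nEnd. At 1391 peaks per library the shares at H3K27ac-only regions were 1.53% and 1.25% in nEnd and 0.646%, 0.646% and 0.485% in DP cells, against 7.75%, 7.70%, 4.73%, 4.67% and 3.93% of doubly marked regions. The mean difference was then -4.84 points, and the contrast in ratio between nEnd and DP cells was smaller than in the full lists.

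**Figure D3:**
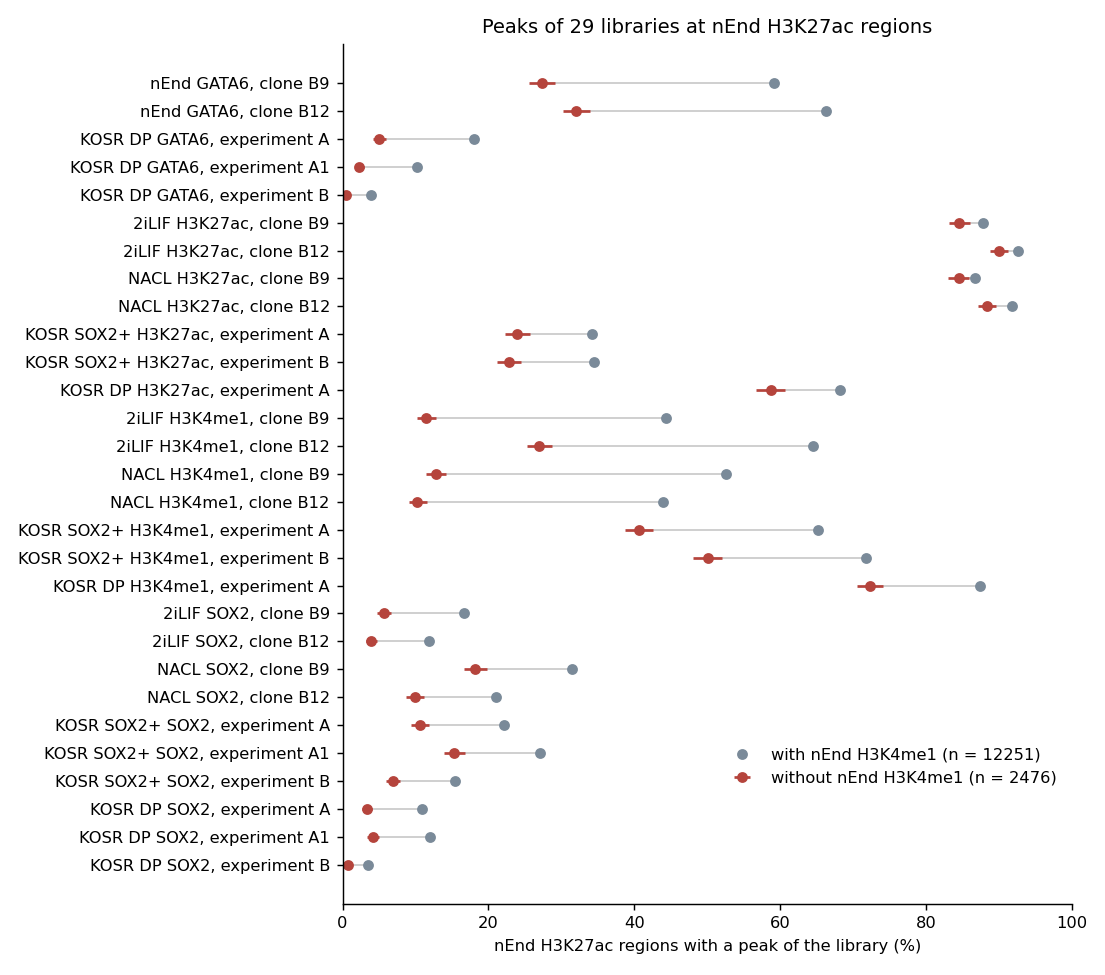
Percent of H3K27ac-only (red, with 95% Clopper-Pearson intervals) and doubly marked (grey) regions with a peak of each of 29 libraries. The grey point lies to the right of the red point in every library, with differences (red minus grey) from -2.14 points in NACL H3K27ac clone B9 to -39.9 points in NACL H3K4me1 clone B9.

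Taking the nEnd libraries together, 586 H3K27ac-only regions (23.7%, against 50.4% of all 14727) had GATA6 in both. A further 297 (12.0%, against 13.5% of all) had it in 1 and 1593 (64.3%, against 36.1% of all) in neither. Those with GATA6 in both lay within 1 kb of a start site in 49.7% of cases, and those with none in 73.7%. Their median width was 4222 and 4660 bp, and the share with CpG-rich windows 18.6% and 34.2%. One of the 4 GATA forms occurred in 73.0% and 47.5% of windows, and among distal regions in 81.7% of 295 and 60.9% of 419. The strongest GATA6 maximum lay at a median of 152 bp (B9) and 186 bp (B12) from the strongest H3K27ac maximum, where in doubly marked regions the distances were 239 and 282 bp. Doubly marked regions are wider, which leaves room for larger distances, and the distances were not compared at matched width. GATA6 peaks at H3K27ac-only regions ranked lower within their library than those at doubly marked regions, at medians of 51.1 against 69.1 in B9 and 48.7 against 71.5 in B12.

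GATA6 sites of DP cells at H3K27ac-only regions were few, and most of them also had GATA6 in nEnd. A peak of at least 2 of 3 DP libraries was found at 57 H3K27ac-only regions (2.3%, against 8.41% of all), 48 of which had GATA6 in both nEnd libraries (1.94%, against 7.94% of all) and 2 in neither (0.0808%, against 0.122% of all). A peak of any DP library was found at 128 (5.17%, against 16.5% of all). SOX2 of at least 2 DP libraries was found at 62 H3K27ac-only regions (2.50%, against 7.95% of all), and both factors at 17 (0.687%, against 3.64% of all).

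Of the H3K27ac-only regions 10 kb or more from a start site with GATA6 in both nEnd libraries, the strongest lay in an intron 10948 bp from a start site of Tnrc6a (chr7:123106328-123112937), with ranks of 85.6 and 76.4, GATA6 in no DP library and H3K27ac in 3 of the 7 libraries of other conditions. A region 16799 bp from Nsd1 (chr13:55189242-55192983), a gene for an H3K36 methyltransferase, ranked at 73.0 and 72.6. It had GATA6 in 2 DP libraries, SOX2 in 7 of 10 libraries and H3K27ac in all 7. The region 36914 bp from Actbl2 (chr13:111291927-111296997) ranked at 74.8 and 70.3 and lay 132241 bp from the nearest H3K4me1 peak. That near Gldc, the glycine decarboxylase, ranked at 70.8 and 73.8 but lay only 511 bp from an H3K4me1 peak. Regions near Gm37386, Sox5os1, Phf2os1, Gm14120, Gm10728 and 6820426E19Rik completed the first 10, and Nsd1 was the only one of the 10 with GATA6 in a DP library.

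SOX2 was less frequent at H3K27ac-only regions in all 10 libraries. It was found in 2iLIF at 5.65% (B9) and 3.92% (B12) of them, against 14.8% and 10.5% of all 14727 regions. NACL gave 18.2% and 9.89%, against 29.2% and 19.2%. The SOX2+ cells of experiments A, A1 and B gave 10.6%, 15.3% and 6.87%, against 20.2%, 25.1% and 14%. For the DP cells of the same experiments the values were 3.31%, 4.16% and 0.767%, against 9.61%, 10.7% and 2.99%. At 1378 peaks per library the shares at H3K27ac-only regions lay between 0.606% (NACL clone B9) and 1.21% (SOX2+ experiment A1), so the order of the full lists did not hold at equal peak numbers, and the mean difference from doubly marked regions was -2.22 points. The difference from doubly marked regions averaged -9.34 ± 3.07 percentage points (SD, n = 10 libraries; exact sign-flip test p = 0.00195, adjusted p = 0.00781). Averaged per clone or KOSR experiment as a replicate block it was lower in 5 of 5 blocks, where the exact test can give no p under 0.0625 (adjusted p = 0.125). Between regions of 3443.5 to 6449 bp it was -3.07 points, and in the 500 bp around the maximum -2.62 points, again with adjusted p = 0.00781 by the exact sign-flip test.

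H3K27ac of pluripotent culture was found at H3K27ac-only regions nearly as often as at all regions. In 2iLIF a peak was found at 84.6% (B9) and 90.1% (B12) of them, where all 14727 regions had 87.3% and 92.2%. In NACL it was found at 84.5% and 88.4%, against 86.3% and 91.2%. In SOX2+ cells the shares were 23.9% (experiment A) and 22.8% (B), against 32.4% and 32.5% of all, and in the DP library 58.7%, against 66.7%. The 2iLIF and NACL lists hold 210904 to 401853 peaks and cover 13.2% to 21.6% of the genome, those of SOX2+ cells 13514 and 14722 peaks and about 1%. At 13514 peaks per library the shares were 25.9% to 30.0% in 2iLIF and NACL, 23.9% and 21.2% in SOX2+ cells and 26% in DP cells. Doubly marked regions then had 40.9% to 44.0%, 34.2% and 33.3%, and 37.1%, and the mean difference between the classes was -12.4 points. The gap between SOX2+ cells and the pluripotent cultures was thus much smaller at equal peak numbers than in the full lists. DP cells lay within the range of 2iLIF and NACL at H3K27ac-only regions and below it at doubly marked regions.

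Compared with doubly marked regions, H3K27ac was 6.11 ± 4.16 percentage points less frequent at H3K27ac-only regions (SD, n = 7 libraries), and lower in 7 of 7 (exact sign-flip test p = 0.0156, adjusted p = 0.0208). With a replicate block per clone or experiment it was -6.80 points and lower in 4 of 4 blocks, where the exact test can give no p under 0.125 (adjusted p = 0.125). The direction turned when widths were matched. Between 3443.5 and 6449 bp, where 1239 H3K27ac-only and 4025 doubly marked regions lay, H3K27ac was 3.51 points more frequent at the H3K27ac-only regions and higher in 7 of 7 libraries, by 0.197 to 7.12 points (exact sign-flip test, adjusted p = 0.0208). In that range 67.5% of the H3K27ac-only and 45.1% of the doubly marked regions lay within 1 kb of a start site. Without the first nEnd H3K4me1 library the difference was -1.40 points (adjusted p = 0.172, exact sign-flip test), and without the nEnd H3K27ac library of B12 it was -10.3 points (adjusted p = 0.0208, exact sign-flip test).

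H3K4me1 of the other conditions was also less frequent at H3K27ac-only regions, although none of those libraries entered the rule. It was found at 11.5% and 27% of them in 2iLIF, 12.8% and 10.3% in NACL, 40.7% and 50.1% in SOX2+ cells and 72.3% in the DP library. Among all 14727 regions the shares were 38.9% and 58.2%, 45.9% and 38.2%, 61% and 68.1%, and 84.9%. The difference from doubly marked regions averaged -29.3 ± 9.08 percentage points (SD, n = 7 libraries), lower in 7 of 7 (exact sign-flip test p = 0.0156, adjusted p = 0.0208). With the replicate block it was -28.3 points and lower in 4 of 4 blocks (exact test, adjusted p = 0.125, likewise the smallest possible). Between 3443.5 and 6449 bp it was -15.4 points and lower in 7 of 7. At 24700 peaks per library the H3K27ac-only regions had 8.24% to 12.0% in 2iLIF and NACL, 13.4% and 12.6% in SOX2+ cells and 13.6% in DP cells, while doubly marked regions had 37.4% to 48.0%. The list of DP cells held 130749 peaks.

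**Figure D4:**
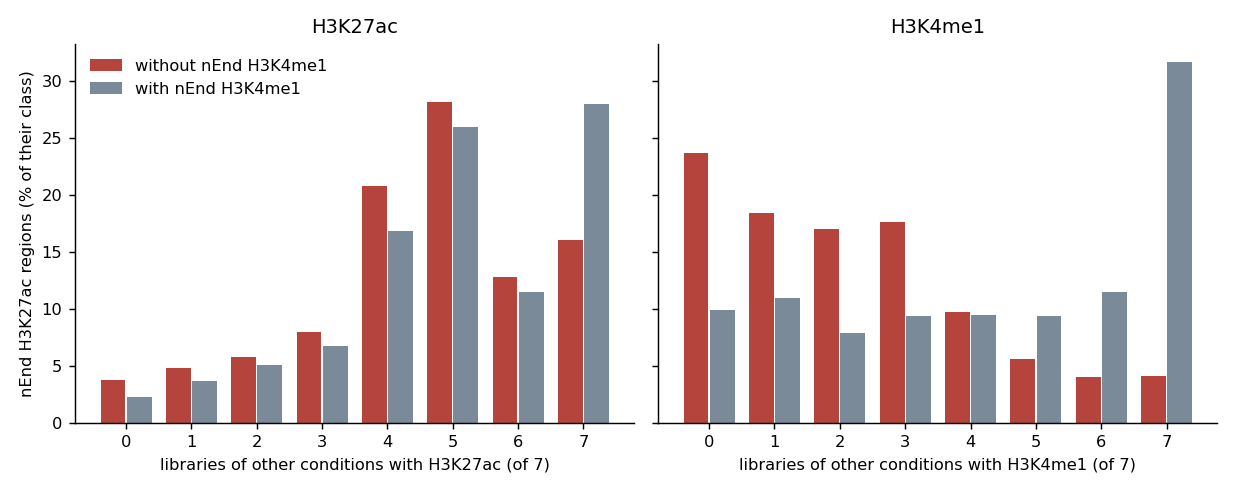
Percent of H3K27ac-only (red) and doubly marked (grey) regions by the number of the 7 libraries of 2iLIF, NACL, SOX2+ and DP cells with a peak of H3K27ac (left) or H3K4me1 (right). In the right panel 23.7% of the red and 9.89% of the grey regions stand at 0 libraries, and 4.08% and 31.6% at all 7.

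Counting libraries, 398 H3K27ac-only regions (16.1%, against 26% of all 14727) carried H3K27ac in all 7 and 92 (3.72%, against 2.5%) in none. H3K4me1 was found in all 7 at 101 regions (4.08%, against 27%) and in none at 586 (23.7%, against 12.2%). Only 9 regions (0.363%, against 0.115% of all) had H3K27ac in all 7 and H3K4me1 in none. Both 2iLIF and both NACL libraries had H3K27ac at 1873 regions (75.6%, against 79% of all), and at least 1 of the 4 H3K4me1 libraries of the same cultures had a peak at 778 (31.4%, against 64.1% of all). The 859 regions with H3K4me1 in both SOX2+ libraries and the DP library made up 34.7%, against 57.8% of all, and the 117 with it in both 2iLIF and both NACL libraries 4.73%, against 28%.

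The regions with H3K27ac in none of the 7 other libraries can be set beside those with it in all 7. Of the 92, 12 lay within 1 kb of a start site and 53 had GATA6 in both nEnd libraries, where of the 398 these were 357 and 68. Windows with one of the 4 GATA forms made up 77.2% and 38.4%, and CpG-rich windows 1.09% and 51.8%. The strongest of the 92 lay in an intron 17095 bp from a start site of Sox5os1 (chr6:144039003-144046019), with ranks of 90.6 and 52.9, GATA6 in both nEnd libraries and no H3K4me1 in any library. The region 15621 bp from 6820426E19Rik ranked at 88.2 and 50.3. That in an intron 18399 bp from Myocd, which encodes a cofactor of smooth muscle and cardiac genes, ranked at 66.5 and 62.3. The region at Tff3, which encodes a secreted trefoil peptide, ended 90 bp from its start site (chr17:31129736-31135581) and ranked at 69.5 and 38.1. Sox5os1, 6820426E19Rik, Myocd, Thop1 and Tff3 had neither mark in any other condition, while Cfap99, Umodl1, Gm47071, Bola3 and 1700061N14Rik had H3K4me1 in 1 to 3 of the 7 libraries. Of these 10, 7 had GATA6 in both nEnd libraries, 1 in 1 library and Bola3 and Gm47071 in none.

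Regions with H3K4me1 in all 7 other libraries and none in nEnd were led by Eef1a1, Wdtc1 and Tspan9. Rabif, Bet1l, Pcmtd1, Ncapd2 with Mrpl51, Mllt10, Wdr5 and Tipin followed. Wdr5 encodes a core subunit of the H3K4 methyltransferase complexes, and its region of 21495 bp (chr2:27510757-27532251) lay 1263 bp from an nEnd H3K4me1 peak. All 10 lay 928 to 23383 bp from one. Of the 101 such regions 63.4% lay within 1 kb of a start site and 23.8% had GATA6 in both nEnd libraries, near the values of all H3K27ac-only regions, 67.1% and 23.7%.

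Promoter and distal H3K27ac-only regions differed most in H3K27ac of the other conditions. It was found at 72.9% of the 1661 promoter and 48.1% of the 815 distal regions on average, higher at promoters in 7 of 7 libraries by 24.7 ± 6.91 percentage points (SD; exact sign-flip test p = 0.0156, adjusted over 4 antibodies p = 0.0625). In SOX2+ cells the distal regions had 8.59% and 9.45%, against 31.5% and 29.4% of promoters. Doubly marked regions were split in the same direction, with 15.7% and 17.5% of distal and 45.8% and 45.2% of promoter regions. For GATA6 the split differed by condition. In nEnd it was found at 42.1% (B9) and 42.7% (B12) of distal and 20.05% and 26.8% of promoter regions, where doubly marked regions had 69.2% and 74.4% of distal and 52.9% and 61.1% of promoter regions. In DP cells promoters minus distal regions gave -0.192 to 1.12 points. Over all 5 libraries the mean difference was -7.41 ± 10.8 points (exact sign-flip test p = 0.312). H3K4me1 was 20.8, 24.5 and 32.7 points more frequent at promoters in the SOX2+ and DP libraries and -1.19 to 1.62 points in 2iLIF and NACL, with a mean of 11.3 ± 14.2 points (exact sign-flip test p = 0.0938). SOX2 differed by -0.569 ± 1.88 points (exact sign-flip test p = 0.363). These 4 comparisons were chosen after their values were seen.

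**Figure D5:**
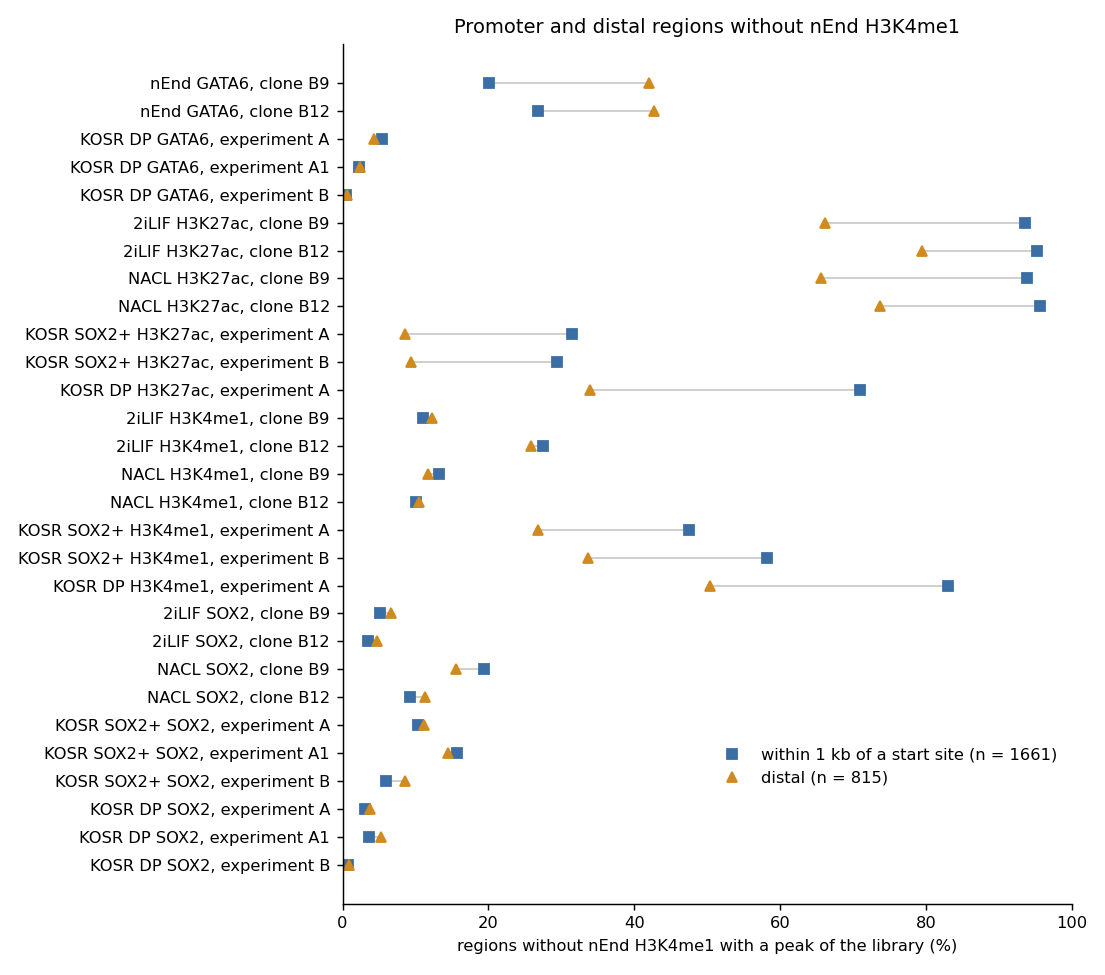
Percent of promoter (blue squares, within 1 kb of a start site) and distal (orange triangles) H3K27ac-only regions with a peak of each of 29 libraries. The squares lie to the right in all H3K27ac libraries, and the triangles in both nEnd GATA6 libraries, at 42.1% and 42.7%.

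Of the distal H3K27ac-only regions, the strongest H3K27ac maximum lay in an intron in 464, between genes in 312 and in an exon in 39. Doubly marked distal regions had like proportions, with 57.1% in introns against 56.9%. Distal H3K27ac-only regions had H3K4me1 in none of the 7 other libraries in 43.7% of cases, where promoter regions had 13.8%.

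The share of H3K27ac-only regions varied among chromosomes. It was 24.8% of 298 regions on X, 24.7% of 910 on chromosome 7 and 23.1% of 554 on chromosome 16, and it was 6.03% of 580 on chromosome 15 and 8.22% of 450 on chromosome 18. Chromosome 15 held 5.44% and 5.52% of the nEnd H3K4me1 peaks but 3.99% and 4.06% of the nEnd H3K27ac peaks, and chromosome 18 held 3.71% and 4.12% against 3.14% and 3.33%. Chromosome 7 held 5.24% and 5.33% against 6.26% and 6.05%. On chromosome 14 the B12 library had 2.94% of its H3K27ac peaks and the B9 library 3.91%. Whether the DNA content of these cultures took part in this was not tested. Without chromosomes 8, 14, 15 and 18, 2239 H3K27ac-only regions were left, 67.3% of them within 1 kb of a start site, and the differences of GATA6, H3K27ac, H3K4me1 and SOX2 were -18.1, -6.18, -28.9 and -9.26 points.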

How the data were processed

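CUT&RUN libraries of SGGC cells were analysed from 35 deposited peak lists. According to the submitters' processing notes, reads were processed with cutadapt 1.18, Bowtie2 2.3.4.1, SAMtools 1.9, Picard 2.9.1, bedtools 2.27.1 and deepTools 3.2.0 and peaks were called with SEACR, on mm10 (GRCm38). Per the study's methods, peaks were called per library against IgG. The deposited values are the summed and the highest coverage signal of each peak on each library's own scale, so peaks were ranked by signal inside their own library. File names give the relaxed SEACR mode for histone peaks and the stringent mode for factor peaks, and the methods state the reverse. The IgG samples were not used here.

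Intervals overlapped if they shared 1 bp. The autosomes, X and Y were used. Start sites came from GENCODE M21, sequence from GRCm38 and promoters from RefSeq. A region was named for the nearest start site, or for a protein-coding gene where several lay within 1 kb. For each library, the percent of doubly marked regions with a peak was subtracted from that of H3K27ac-only regions, and these differences were tested with exact two-sided sign flips over libraries, with Benjamini-Hochberg adjustment over 4 antibodies and a threshold of 0.05. The test was thus paired within each library. Libraries of a group came from different clones or KOSR experiments, except both nEnd H3K4me1 libraries. Clones and experiments recur across conditions, so libraries are not fully independent and the p-values measure the spread between libraries. Python 3.11.15, numpy 2.4.6, pandas 2.3.3, scipy 1.17.1 and pysam 0.24.0 were used, and the overlap and test functions were checked on simulated intervals.

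The regions, gene lists, motif strings and rules were chosen with earlier results of these data known. Genes named are those of the 10 strongest, 10 widest, 10 strongest distal regions with GATA6 in both nEnd libraries, 10 strongest without H3K27ac elsewhere, 10 strongest with H3K4me1 in all 7 other libraries, and up to 4 per gene list by rank; a few further list members were named after their values were seen. Alternatives were other overlaps, thresholds, distances, width ranges, peak numbers, region classes and each library left out. Leaving out 4 chromosomes and averaging the differences per clone or experiment (replicate block) were added after seeing the data. Some regions and genes that these rules would name are not reported here.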

Additional observations from a re-analysis of the deposited data

Results flagged for a closer look

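Of KOSR experiment B, 1 library each of H3K27ac and H3K4me1 carries a title that names DP cells and a source name that names SOX2+ cells, so they entered no comparison. Data outside the comparisons were looked at for signal. The H3K4me1 library had a peak at 55.6% of the H3K27ac-only regions, against 79.4% of doubly marked regions, and the H3K27ac library at 27.4%, against 40.3%. Among the differences of 5 GATA6, 7 H3K27ac, 7 H3K4me1 and 10 SOX2 libraries, Dixon's test set no single library apart. The test was run per antibody with all conditions pooled, so it cannot tell whether a library stood apart within its own condition.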

How the results depend on the processing

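The number of H3K27ac-only regions, 2476 as reported, was 6100 with a peak of either nEnd H3K27ac library, 7091 where only H3K4me1 regions of both libraries excluded a region, and 1359 with the stronger 50% of peaks, and it ranged from 2575 to 7150 with single nEnd libraries left out. The percent within 1 kb of a start site was 47.7 with either library, 69.7 with an overlap of 50% of the smaller interval, 80.4 with the stronger 50% of peaks, 61.5 for protein-coding start sites, 74.6 within 5 kb, and 52.2 to 68.7 with single nEnd libraries left out. The H3K27ac difference was -2.15 points (adjusted p = 0.0938) where H3K4me1 of both nEnd libraries was required, -1.34 (0.141) with the stronger 50% of peaks, -1.67 (0.0781) in the 500 bp around the maximum and -5.57 (0.0938) within 1 kb of a start site, all by exact sign-flip tests; it turned to 3.51 at matched widths, and it ranged from -10.3 to -1.40 with single libraries left out. It was larger at equal peak numbers (-12.4), with a peak of either nEnd H3K27ac library (-10.8) and at distal regions (-10.6). The cause was not tested. Apart from the replicate block, the H3K4me1 difference kept its direction and its call in 23 alternatives (-35.0 to -15.4) and the SOX2 difference in 26 (-13.6 to -2.22). The GATA6 difference kept its direction in 22 (-26.2 to -4.84, exact sign-flip test adjusted p 0.0625 to 0.125), none of which could pass the threshold. With a replicate block, in which differences were averaged per clone or KOSR experiment and which was added after seeing the data, the differences were -18.1 (GATA6), -6.80 (H3K27ac), -28.3 (H3K4me1) and -9.34 (SOX2), all with adjusted p = 0.125 by the exact test, and 4 or 5 blocks cannot pass the threshold. Read depth is unknown, and the peak number of a library limits which regions it can show.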
